A study of Mus musculus with 6 samples.

Results

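The insulin-like growth factor (IGF) system was followed through 10 genes of MLO-Y4 cells, an osteocyte-like line from mouse. They were chosen by name as rows of the deposited gene table, 10 of 53797 listed genes, and comprise the ligands Igf1 and Igf2, the receptors Igf1r and Igf2r, and the binding proteins Igfbp2, Igfbp3, Igfbp4, Igfbp5, Igfbp6 and Igfbp7. RNA was sequenced from 3 cultures treated with low-intensity pulsed ultrasound (LIPUS) and 3 untreated Control cultures, to find which genes of osteocyte-like cells respond to the stimulus. The LIPUS group received 20 min of pulsed ultrasound at 1.5 MHz and 30 mW/cm2, and RNA was extracted soon after its end. According to the methods, treated and Control wells shared a culture plate, with the transducers under the Control wells unplugged, and all cells grew in medium with fetal bovine serum. Both groups are the same cell line, so the cultures are repeats of 1 line and not of different animals. The study describes a Control culture whose transcriptome stood apart from the rest of its group, and names ultrasound leaking into Control wells of the shared plate as possible. The pooled Control values cannot be given without that culture, and its part in the ratios was not tested.

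IGF1 and IGF2 are small peptides that act on cell growth, survival and bone formation through the receptor tyrosine kinase IGF1R, which signals by way of insulin receptor substrates, PI3K and Akt. IGF2R, the cation-independent mannose 6-phosphate receptor, takes IGF2 up for degradation and carries lysosomal enzymes. IGF-binding proteins are secreted, hold IGFs outside the cell, and are themselves cut by proteases that free the ligand. Bone matrix stores IGFs, and IGFBP5 is a binding protein known for its affinity for bone mineral and extracellular matrix.

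The deposited table gave 1 FPKM per gene and group, pooled over the libraries of that group. FPKM counts fragments, scaled to the length of the gene's exons and to the mapped reads of the library. The table gives no value of a single culture, so the values below carry no SD. The table's columns of the authors' own comparison were left out by choice, no test was run here, and whether a difference exceeds the spread between cultures was not assessed. The methods state a number of reads per sample, but the reads behind each value cannot be read from such a table. Because of the scaling to exon length, levels of different genes can be set side by side. A gene was counted as higher or lower past 1.5-fold where the mean FPKM of the 2 groups was at least 1, both groups were above 0, and the ratio of LIPUS to Control reached 1.5 in that direction. Of the 10 genes, 6 passed this minimum and 0 of these were past 1.5-fold in either direction. Over all 11465 genes that passed it, 7.48% were higher and 8.08% were lower past 1.5-fold. The median log2 ratio was 0.06 for the 6 genes and -0.00143 for all genes that passed.

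The 10 genes fell into 3 levels. Igfbp4, Igfbp7, Igfbp5 and Igfbp6 were above an FPKM of 100 in both groups. Igf1r and Igf2r lay between 1 and 100 in both. The other 4, which are both ligands with Igfbp2 and Igfbp3, had a mean FPKM under 1. The table's status column marked 5 genes as OK (Igf2r and the 4 abundant binding proteins) and 5 as NOTEST, the mark it gives to genes whose data it did not compare.

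**Figure D1:**
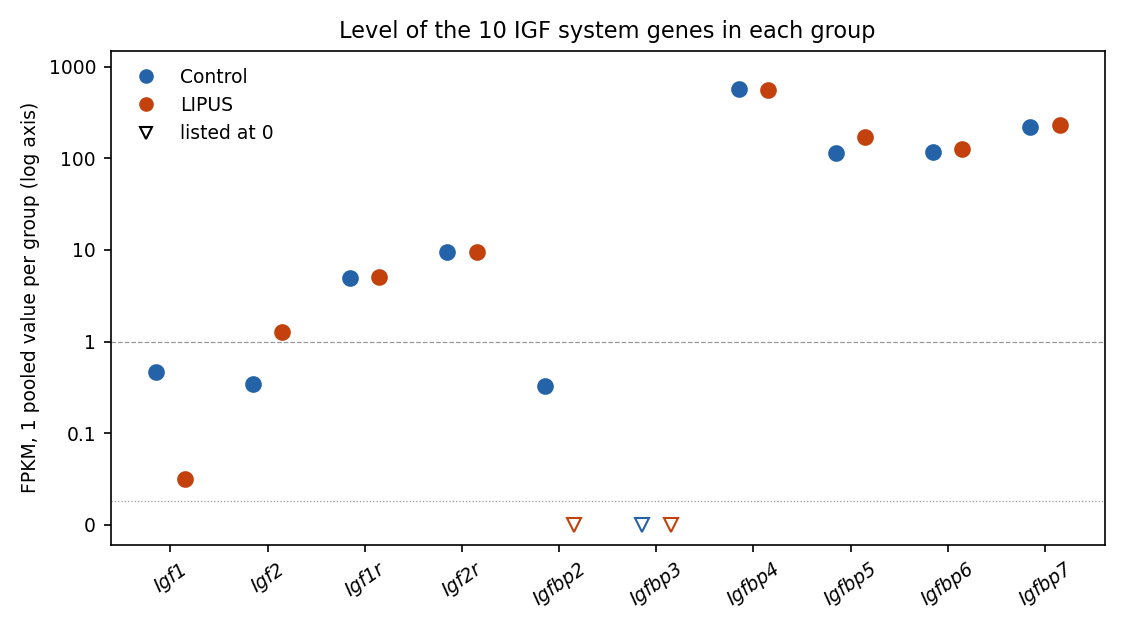
FPKM of the 10 IGF system genes on a log axis, with 1 pooled value for Control (blue) and 1 for LIPUS (orange), open triangles for values listed at 0, and a dashed line at an FPKM of 1. The binding proteins Igfbp4, Igfbp5, Igfbp6 and Igfbp7 stand above 100 in both groups. Igf1, Igf2, Igfbp2 and Igfbp3 lie below the dashed line or are listed at 0, except Igf2 in LIPUS cells at 1.27.

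Among these genes Igfbp5 had the largest ratio of those above the minimum, and Igfbp4 was the most abundant with a ratio close to 1. Their upstream sequences are shown because these 2 genes mark the ends of that comparison. The sequences are those of RefSeq on GRCm38.p6, 250 bases before the annotated start, read 5′ to 3′ on the strand of the gene. Igfbp5 is on the minus strand at chr1:72874866-72875115 and Igfbp4 on the plus strand at chr11:99040994-99041243. Capitals mark the letters of a TATA box, TATAAA in Igfbp4, and in Igfbp5 of the variant TATTTAA, which was searched for only after the sequence had been read.
Igfbp5: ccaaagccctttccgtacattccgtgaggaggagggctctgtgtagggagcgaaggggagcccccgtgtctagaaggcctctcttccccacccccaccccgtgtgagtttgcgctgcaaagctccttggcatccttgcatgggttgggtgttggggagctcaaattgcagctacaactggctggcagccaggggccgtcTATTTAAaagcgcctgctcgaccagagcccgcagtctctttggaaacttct
Igfbp4: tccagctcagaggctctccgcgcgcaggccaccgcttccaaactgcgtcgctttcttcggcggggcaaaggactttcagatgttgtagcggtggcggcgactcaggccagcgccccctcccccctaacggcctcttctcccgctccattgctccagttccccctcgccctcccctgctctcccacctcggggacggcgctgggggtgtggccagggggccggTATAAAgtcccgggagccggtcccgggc

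The TATA box of Igfbp4 lies 28 to 23 bases before its start, and the variant of Igfbp5 lies 51 to 45 bases before its RefSeq start. GENCODE M21 starts Igfbp5 19 bases farther upstream, so the last 19 bases of its window lie inside that gene model, and from that start the variant lies 32 to 26 bases away. For Igfbp4 both annotations give the same start. On either strand, TATAAA occurred in 12.4% and TATTTAA in 4.18% of all 32851 promoters of the same 250-base window. The GC box (GGGCGG), a site for Sp1-type factors, is in neither of these sequences but occurred in 6 of the 14 promoters that RefSeq gives for the 10 genes, and in 32.7% of all promoters. The Egr motif (GCGNGGGCG), whose factors are immediate early genes, occurred in 1 of the 14, that of Igf2r, against 4.70% of all promoters. The match in Igf2r shares bases with a GC box. The AP-1 motif (TGANTCA), bound by Fos and Jun proteins, occurred in 2 of the 14, 1 of Igf1 and 1 of Igfbp2, against 6.75%. The CArG box of serum response factor occurred in 1 of the 14, at 1 of the 4 starts of Igf2, against 1.47%. The windows of Igfbp5 and Igfbp4 held no match to the Egr, AP-1 or CArG letters, which says only that these letters are absent from the 250 bases. GC content was 58.8% for Igfbp5 and 69.2% for Igfbp4, with a median of 52.4% over all promoters.

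The ligands were listed at very low levels. Igf1, on chromosome 10 of GRCm38 from 87858265 to 87937042 on the plus strand, had an FPKM of 0.467 in Control and 0.0316 in LIPUS cells. Igf2, on chromosome 7 from 142650766 to 142666816 on the minus strand, had 0.347 in Control and 1.27 in LIPUS cells. Igf1 was thus lower and Igf2 higher in the LIPUS group, and in both genes the lower of the 2 values was below 0.5 FPKM.

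Without a pseudocount, Igf1 was 14.8-fold lower (log2 ratio -3.89) and Igf2 was 3.66-fold higher (log2 ratio 1.87). Of the 2427 genes with a mean FPKM under 1 and both groups above 0, 27.4% were higher and 29.5% were lower past 1.5-fold, and the central 95% of their log2 ratios ran from -2.49 to 2.47. Igf2 lies inside that range and Igf1 outside it. With 1 FPKM added to both groups the log2 ratio was -0.51 for Igf1 and 0.75 for Igf2. Summed over both ligands, the level was 0.814 FPKM in Control and 1.30 FPKM in LIPUS cells.

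Both ligand genes are overlapped by an antisense gene on the other strand. Igf1 and Igf1os share 5117 bases, and Igf2 and Igf2os share 7124 bases in GENCODE M21. Igf2os was listed at 0 in both groups. The kit marks strand, but the sources used here do not state whether the FPKM used it.

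The receptors were at moderate levels with ratios close to 1. Igf1r, the signalling receptor, lies on chromosome 7 from 67952827 to 68233668 on the plus strand and had 4.93 FPKM in Control and 5.02 FPKM in LIPUS cells, a ratio of 1.02. Igf2r lies on chromosome 17 from 12682406 to 12769664 on the minus strand and had 9.57 FPKM in Control and 9.54 FPKM in LIPUS cells, a ratio of 0.997. Their log2 ratios were 0.03 and -0.00369. The 2 receptors together gave 14.5 FPKM in Control and 14.6 FPKM in LIPUS cells, and Igf2r stood at 1.94 times Igf1r in Control and 1.90 times in LIPUS cells.

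Of the 2 receptors, Igf1r received the status NOTEST. The lowest level at which a gene of the table had the status OK was an FPKM of 6.70 in the higher group, and Igf1r was below it. In the central 95% of the 4745 genes with a mean FPKM from 1 to 10, where both receptors belong, the log2 ratio ran from -1.54 to 1.35. The ratios of Igf1r and Igf2r sit near the middle of that range.

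The binding proteins were the abundant part of the system. Igfbp4, which mostly inhibits IGF action until it is cleaved, lies on chromosome 11 from 99041244 to 99054392 on the plus strand. Its FPKM was 570 in Control and 560 in LIPUS cells, where it ranked at position 152 and position 170 of all listed genes. The ratio was 0.984, with a log2 ratio of -0.02. Among the 951 genes with a mean FPKM of at least 100, 638 had a higher ratio than Igfbp4.

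Igfbp7, a secreted protein related to the IGFBPs that binds IGFs weakly, lies on chromosome 5 from 77349240 to 77408041 on the minus strand. It had 219 FPKM in Control and 234 FPKM in LIPUS cells, a ratio of 1.07. Igfbp6, which prefers IGF2 over IGF1, lies on chromosome 15 from 102144362 to 102149511 on the plus strand and had 118 FPKM in Control and 126 FPKM in LIPUS cells, also a ratio of 1.07. Both were 6.9% higher in the LIPUS group, and each log2 ratio was 0.10. About 360 of the 951 abundant genes had a higher ratio than either of them.

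Igfbp5 stood apart from the other abundant binding proteins. It lies on chromosome 1 from 72857932 to 72874884 on the minus strand, and had 115 FPKM in Control and 171 FPKM in LIPUS cells. The level was 56.9 FPKM higher in the LIPUS group, a ratio of 1.497 and a log2 ratio of 0.58, just short of the 1.5-fold limit. Its rank among all listed genes was 823 in Control and 541 in LIPUS cells.

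At a limit of 25% above Control, Igfbp5 was the 1 gene of the 6 that counted as higher, against 16.8% of all genes that passed the minimum and 8.94% of those with a mean FPKM of at least 100. Of the 951 genes at that level 28 had a higher ratio than Igfbp5, and the central 95% of their log2 ratios ran from -0.44 to 0.61, a range that includes it. Dividing each group by its summed FPKM moved the log2 ratio of Igfbp5 to 0.54, and centring on the median of all genes left it at 0.58. The ratio of Igfbp5 was therefore large for an abundant gene by rank, but its spread over the 3 cultures of each group was not assessed here. The study lists Igfbp5 among the secreted genes of its LIPUS-responsive set. That call rests on the authors' own comparison, which was not used here.

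**Figure D2:**
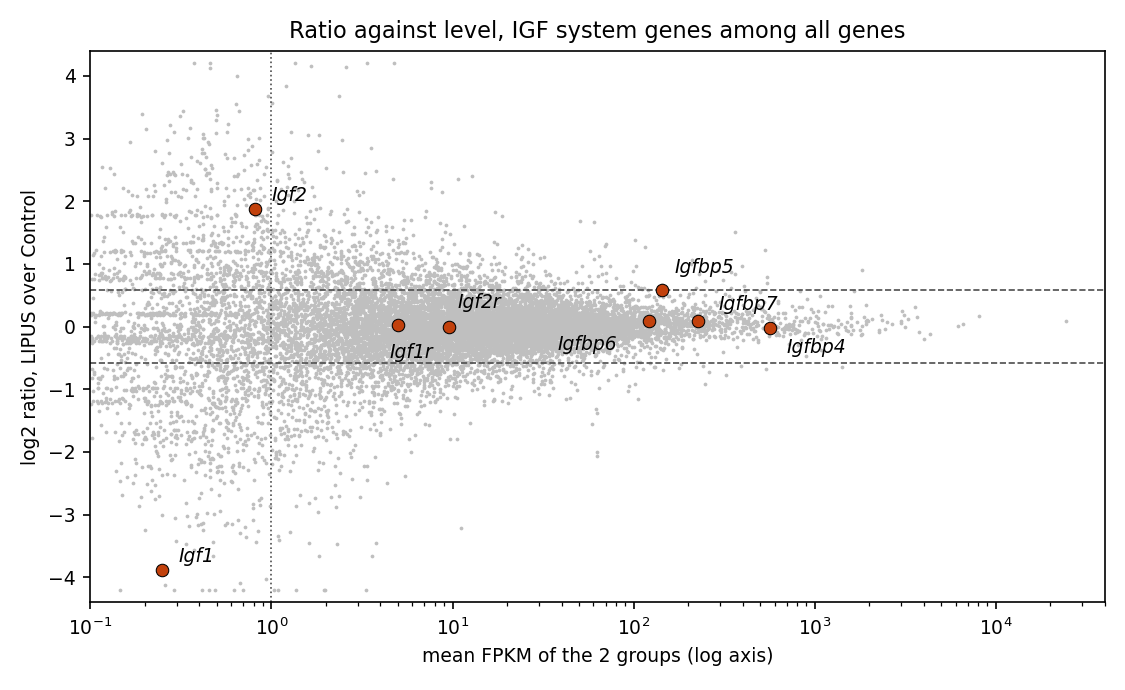
Log2 ratio of LIPUS over Control against the mean FPKM of the 2 groups (log axis), with every gene above 0 in both groups and a mean FPKM of at least 0.1 in grey and the IGF system genes in orange. Dashed lines mark 1.5-fold, the dotted line marks the minimum mean FPKM of 1, and values beyond 4.2 are drawn at 4.2. Igfbp5 sits on the upper line at a level where few genes reach it, while Igf1 and Igf2 lie left of the minimum among widely scattered genes.

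Igfbp2 and Igfbp3 were listed at 0 in the LIPUS group. Igfbp2, known for its RGD integrin-binding motif, lies on chromosome 1 from 72824503 to 72852474 on the plus strand. It had 0.326 FPKM in Control and was listed at 0 in LIPUS cells, so no ratio is given. Igfbp3, the main carrier of IGFs in blood, lies on chromosome 11 from 7206086 to 7213923 on the minus strand and was listed at 0 in both groups. Igfbp1, a binding protein of liver that is not among the 10 genes, was also listed at 0 in both. A listed 0 is not proof of absence, since a gene of this table listed at 0 in 1 group reached an FPKM of 1122 in the other.

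The binding protein genes include pairs that lie next to each other. Igfbp2 and Igfbp5 face each other tail to tail on chromosome 1 with 5457 bases between them. In this pair Igfbp5 had over 100 FPKM in both groups and Igfbp2 under 0.5 FPKM. Igfbp1 and Igfbp3 are the like pair on chromosome 11, with 3539 bases between them, and both were at 0. The longest protein that GENCODE M21 annotates had 271 residues for Igfbp5, 254 for Igfbp4, 238 for Igfbp6 and 313 for Igfbp7, against 1369 for Igf1r and 2483 for Igf2r.

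The summed FPKM of Igfbp1 to Igfbp7 was 1021 in Control and 1091 in LIPUS cells, a ratio of 1.07. Of the difference of 70.7 FPKM, Igfbp5 alone made 56.9. Without Igfbp5 the sums were 906 and 920 FPKM, a ratio of 1.02. Igfbp4 held 55.8% of the sum in Control and 51.4% in LIPUS cells, and Igfbp5 held 11.2% and 15.7%. The shares of Igfbp7 (21.4% in both groups) and Igfbp6 (11.5% in both groups) were alike.

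The order of the binding proteins was Igfbp4, Igfbp7, Igfbp6 and Igfbp5 in Control, and Igfbp4, Igfbp7, Igfbp5 and Igfbp6 in LIPUS cells. In Control, Igfbp5 and Igfbp6 were neighbours with a ratio of 0.974, and in LIPUS cells their ratio was 1.36. Which neighbours in this order differ beyond the spread over cultures was not assessed. Igfbp4 was 4.97 times as abundant as Igfbp5 in Control and 3.27 times in LIPUS cells. The binding proteins outweighed the listed ligands 1253-fold in Control and 839-fold in LIPUS cells, figures that rest on ligand sums near 1 FPKM.

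**Figure D3:**
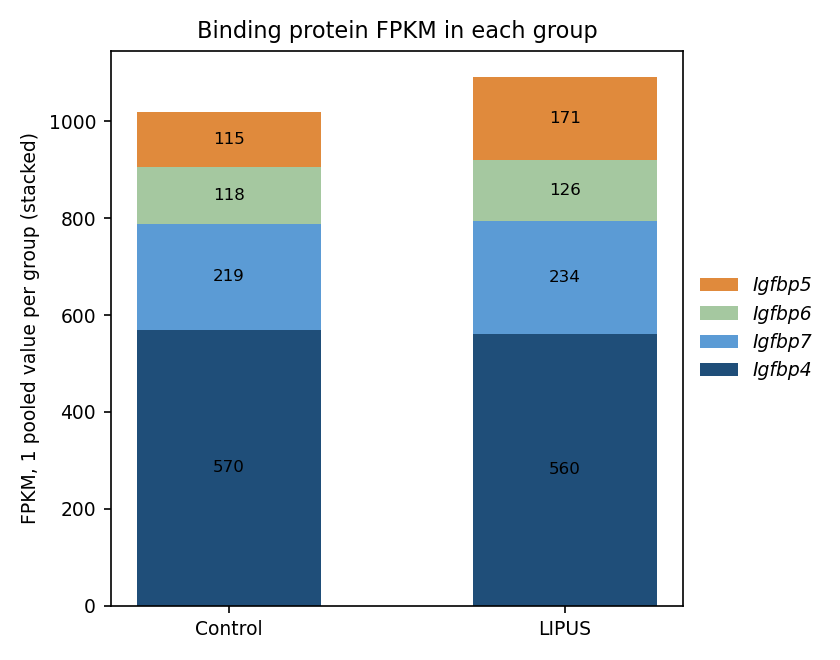
Stacked FPKM of the abundant binding proteins, with 1 pooled value per gene and group printed in each segment. Igfbp5 is the segment that differs most between the bars, at 115 in Control and 171 in LIPUS cells, while Igfbp4 is the largest segment in both.

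Other genes of the IGF pathway were taken from 6 lists with 54 genes in all, of which 38 passed the minimum. Of these, 3 were higher past 1.5-fold (Airn, H19 and Grb14) and 3 were lower (Pik3cb, Insr and Igf2bp1). Among genes with status OK, 1 was higher (Grb14) and 0 were lower. At a mean FPKM of at least 10 there were 0 in both directions. The median log2 ratio of the 38 genes was -0.10. These counts of 3 and 3 among 38 genes are to be read against the 7.48% higher and 8.08% lower of all genes. At a limit of 25%, 8 of the 38 were higher and 6 lower, against 16.8% and 17.8% of all genes. At 2-fold, 1 was higher (Airn) and 0 were lower, against 2.66% and 2.83%. For the other limits tried, the shares of all genes higher and lower past 1.5-fold were 11% and 11.8% with no minimum, 3.39% and 3.26% at a mean FPKM of at least 10, and 4.7% and 4.69% among genes with status OK. With 1 FPKM added to both groups, H19, Insr and Igf2bp1 were no longer past 1.5-fold, and 5.63% of all genes were lower past it. The share of all genes that were higher was not computed at this setting.

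Proteases and inhibitors that act on binding proteins included Htra1, a secreted serine protease with an IGFBP-like domain that cleaves IGFBP5. Htra1 had 332 FPKM in Control and 494 FPKM in LIPUS cells. Its ratio of 1.49 (log2 ratio 0.58) was close to that of Igfbp5 and likewise just short of 1.5, and 30 of the 951 abundant genes had a higher ratio. Adam9, a membrane metalloprotease, had 45.5 and 49.9 FPKM. Of the 7 genes in this list 3 passed the minimum and 0 were past 1.5-fold. Stc1, a stanniocalcin that inhibits the protease PAPPA, had 4.70 FPKM in Control and 6.73 FPKM in LIPUS cells, a ratio of 1.43. Pappa, which cleaves IGFBP4, had 0.465 and 0.318 FPKM.

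On the insulin side, Insr was the 1 gene of 7 that passed the minimum, and 6 were listed at 0 in both groups, among them Ins1, Ins2 and Igfals. Insr, the insulin receptor that can pair with IGF1R, had 3.83 FPKM in Control and 2.36 FPKM in LIPUS cells, 1.62-fold lower. The ratio of Igf1r to Insr was 1.29 in Control and 2.13 in LIPUS cells.

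Among adaptors and brakes next to the receptor, 6 of 9 genes passed the minimum, 1 was higher and 0 were lower past 1.5-fold. Grb14, an adaptor that inhibits insulin receptor signalling, had 4.36 FPKM in Control and 7.42 FPKM in LIPUS cells, a ratio of 1.70. The more abundant Shc1, an adaptor to the Ras pathway, had 87.1 and 94.6 FPKM, and the phosphatase gene Ptpn1 had 81.4 and 66.7 FPKM. The docking proteins Irs1 and Irs2 were both under 1 FPKM, with 0.879 and 0.308 in Control and 0.384 and 0.775 in LIPUS cells.

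All 18 genes of the PI3K, Akt and mTOR list passed the minimum. Of these 13 had a log2 ratio below 0, as did 5749 of the 11465 genes that passed the minimum, and 1 was lower past 1.5-fold and 0 were higher. Pik3cb, a catalytic subunit of PI3K, had 4.08 FPKM in Control and 2.21 FPKM in LIPUS cells, 1.84-fold lower. The more abundant kinase gene Akt1 had 148 and 119 FPKM, and Akt2 had 62.8 and 52.0 FPKM. The median log2 ratio of the list was -0.15, and the lists were compared with all genes only by such medians and counts.

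In the growth hormone axis, 5 of 6 genes passed the minimum and 0 were past 1.5-fold. The feedback inhibitor Socs2 had 31.7 FPKM in Control and 27.3 FPKM in LIPUS cells, and Stat5a, a transcription factor downstream of the growth hormone receptor, had 9.96 and 9.32 FPKM.

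Of the 7 genes that bind Igf2 mRNA or belong to imprinted loci, 5 passed the minimum, 2 were higher and 1 was lower past 1.5-fold. H19, the noncoding RNA that lies 72622 bases from Igf2 and shares its control region, had 0.962 FPKM in Control and 1.76 FPKM in LIPUS cells, a ratio of 1.83. Airn, a noncoding RNA that silences Igf2r in cis from the paternal copy, had 0.156 and 1.85 FPKM. Its ratio was 11.9 (log2 ratio 3.57) at a mean just past the minimum. With 1 FPKM added to both groups its log2 ratio was 1.30. Airn overlaps Igf2r by 28354 bases on the opposite strand, and how reads there were assigned is not given in the sources used here. Plagl1, an imprinted zinc finger gene, had 41.0 FPKM in Control and 57.5 FPKM in LIPUS cells, and Igf2bp2 had 49.4 and 43.6 FPKM. Igf2bp1 was 1.54-fold lower, at 1.44 and 0.936 FPKM.

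**Figure D4:**
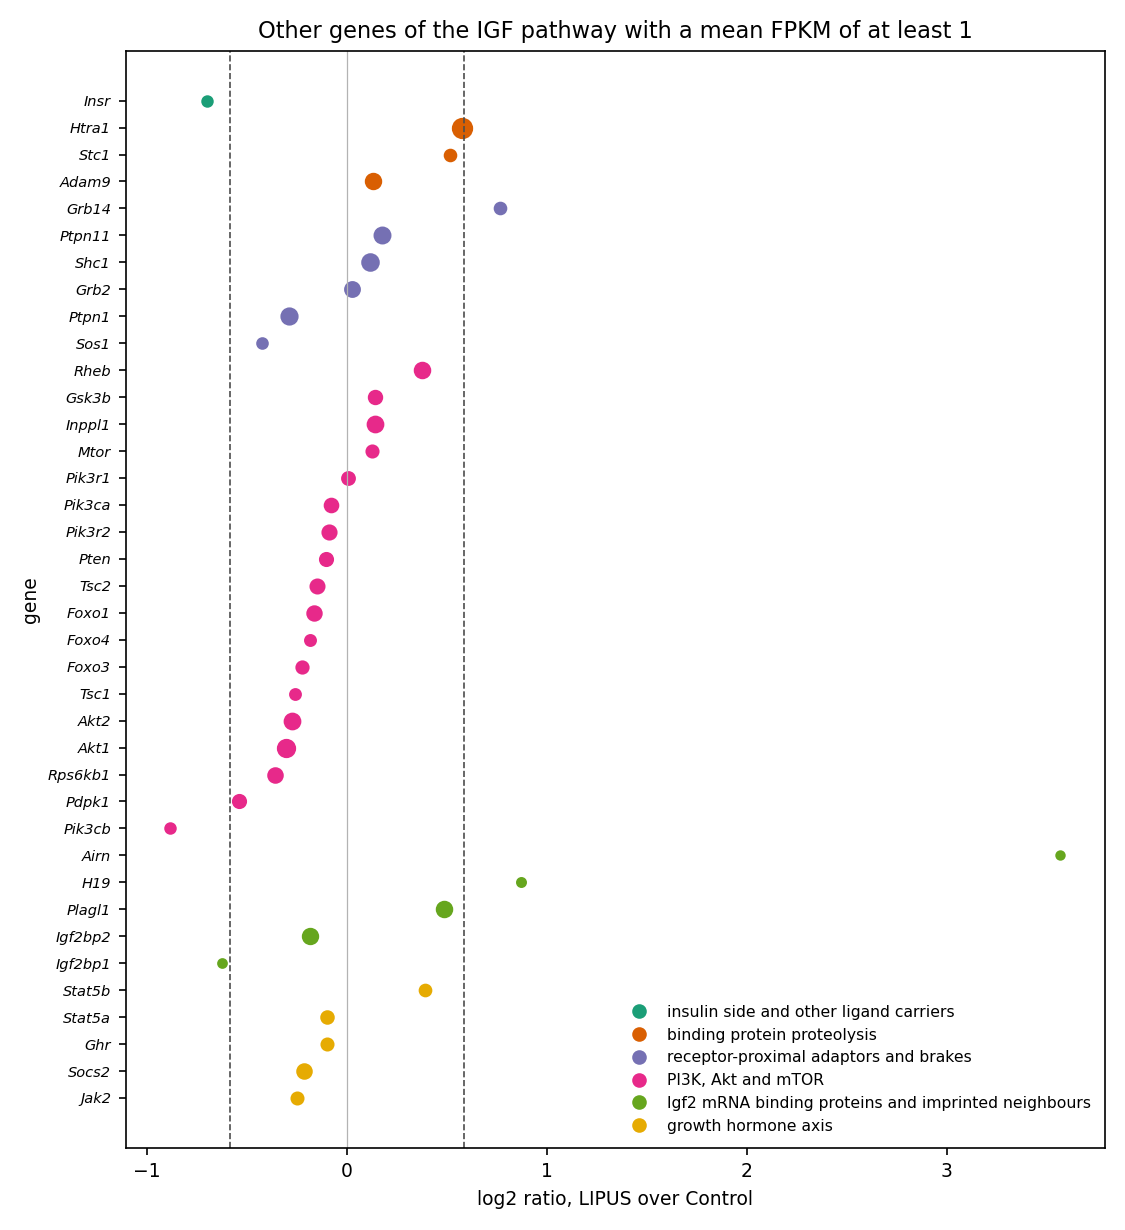
Log2 ratio of LIPUS over Control for the 38 other pathway genes with a mean FPKM of at least 1, coloured by list, with larger points for higher mean FPKM and dashed lines at 1.5-fold. Airn, H19 and Grb14 lie past the right line, Pik3cb, Insr and Igf2bp1 past the left, and the large point of Htra1 lies at the right line.

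The label of the cells was checked against marker lists. Of 8 osteocyte genes, Pdpn, Cd44, Gja1 and Dmp1 had a mean FPKM of at least 1, and Sost, Mepe and Fgf23 were listed at 0 in both groups. The osteocyte list summed to 675 FPKM in Control and 791 FPKM in LIPUS cells. Pdpn, a membrane glycoprotein of early osteocytes, had 295 and 402 FPKM, most of the difference between these sums. Cd44 had 200.2 and 212 FPKM, and the gap junction gene Gja1 had 176 and 170 FPKM, the other direction. Dmp1, a matrix protein of osteocytes, had 3.04 and 7.65 FPKM, a ratio of 2.52. The 6 osteoblast genes summed to 1215 FPKM in Control and 941 FPKM in LIPUS cells, with Col1a1 and Alpl the most abundant and Ibsp at 0. Bglap of this list went the other way, at 0 in Control and 1.58 FPKM in LIPUS cells. Of 5 immune cell genes 4, Ptprc included, were at 0 in both groups, and Cd68 made the sums of 5.32 and 1.72 FPKM. The 3 adipocyte genes summed to 52.9 and 30.5 FPKM, nearly all of it Fabp4, with Plin1 at 0. The endothelial list and the skeletal muscle list each summed to under 0.5 FPKM in both groups, with Cdh5, Kdr, Myod1 and Myog at 0. The part of the higher osteocyte sum and of the lower osteoblast, immune and adipocyte sums in the values of the IGF genes was not tested.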

How the data were processed

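The deposited table holds, for the LIPUS and the Control group, an FPKM that the authors pooled over 3 libraries per group. Per the submitters' processing notes, reads were trimmed (Trimmomatic 0.36) and mapped by TopHat2 2.1.0 with Bowtie2 2.2.6.0 to build GRCm38. The notes give Cufflinks 2.1.1, and the methods give another version. Cuffdiff columns of the authors' own comparison (log2 fold change, test statistic, p-value, q-value) were left out by choice. Without values of single libraries no test was run here, so no p-value is given. The pooled Control FPKM cannot be recomputed without the Control culture that stood apart, and low FPKM carry no error because the reads behind each value are not in the table.

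Ratios of LIPUS to Control were computed here with no pseudocount, with Python 3.11.15, numpy 2.4.6, pandas 2.3.3 and matplotlib 3.10.9. Only the steps of the ratio and of the fold limit were tested on simulated data, with planted 2-fold changes. Coordinates are from GENCODE M21 (GRCm38), and promoters from RefSeq (GRCm38.p6), in which all 10 genes matched by symbol. The genes and lists were chosen with earlier results of these data known. Named are the 10 genes, pathway genes past 1.5-fold and the 2 most abundant of each list, neighbours within 100 kb with a mean FPKM of at least 1, and the 3 genes nearest in level to 2 of the 10. Stc1, Pappa, Irs1, Irs2, Ins1, Ins2, Igfals, Igfbp1, Igf1os and Igf2os were added outside this rule. Alternatives were pseudocounts of 0.1 and 1, scaling by summed FPKM, centring, minimum mean FPKM of none or 10, fold limits of 25% and 2-fold, and genes with status OK alone. A gene of the pathway lists is not reported here and was left out of the lists' counts and medians.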

Additional observations from a re-analysis of the deposited data

How the results depend on the processing

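The log2 ratio of Igf1 was -2.11 with a pseudocount of 0.1 and -0.51 with 1, and that of Igf2 was 1.62 and 0.75. The count of the 10 genes past the limit went from 0 higher and 0 lower to 1 higher (Igf2) and 1 lower (Igf1) with no minimum, and to 1 higher (Igfbp5) at a fold limit of 25%. For the other pathway genes, 3 higher and 3 lower became 4 higher and 7 lower with no minimum. There were 0 in both directions at a minimum mean FPKM of 10, and 1 higher (Grb14) and 0 lower among genes with status OK. At the 25% limit there were 8 higher and 6 lower, and at 2-fold 1 higher (Airn) and 0 lower. With a pseudocount of 0.1 there were 3 higher and 2 lower, Igf2bp1 being no longer past 1.5-fold. With a pseudocount of 1 there were 2 higher (Airn and Grb14) and 1 lower (Pik3cb). The share of all genes past the limit was computed only for the lower side with a pseudocount of 1. With 0.1 it was not computed, so those counts have no share to be read against. Of the 20 other pathway genes named in the text and above 0 in both groups, 4 moved by over 0.1 on the log2 scale with a pseudocount of 0.1 and 9 with 1, each without changing sign. With 1, Airn went to 1.30, H19 to 0.49, Insr to -0.52 and Igf2bp1 to -0.33, and the last 3 were no longer past 1.5-fold. The log2 ratios of Igf1r, Igf2r, Igfbp4, Igfbp5, Igfbp6 and Igfbp7 moved by less than 0.1, as did the medians of those of the 10 genes that passed, of all other pathway genes and of the PI3K, Akt and mTOR list. Single lists hold few genes past 1.5-fold, and their counts moved by over 1.5 times under some settings: with no minimum the proteolysis list had 2 lower and the adaptors 2 higher and 1 lower, and at a minimum of 10 each list had 0 in both directions. Scaling by summed FPKM moved every log2 ratio by -0.05, which took Igf1r from 0.03 to -0.02. No paired analysis was possible because the table holds 1 pooled value per group, and for the same reason no culture could be left out in turn.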

Other observations

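The genes around the 10 IGF system genes were listed to show what else is transcribed there. Within 100 kb, 72 entries were found, of which 20 had a mean FPKM of at least 1, Igfbp5 as the neighbour of Igfbp2 among them. Around Igfbp6 there were 7 such genes, with ratios from 0.672 (Tns2, 39.9 FPKM in Control and 26.8 in LIPUS cells) to 1.07 (Csad), and with Eif4b, Spryd3, Zfp740, Itgb7 and Rarg between them. Around Igfbp4, Rara and Top2a had ratios of 1.13 and 1.15. Around Igfbp7, Polr2b, Noa1 and Rest had ratios of 0.911, 1.14 and 1.22. Around Igf2r, Tcp1, Mrpl18, Wtap and Acat3 had ratios from 0.913 to 1.07, and Airn, at a mean just past the minimum, had 11.9. Acat2, an enzyme that makes acetoacetyl-CoA, had 10.4 FPKM in Control and 6.24 FPKM in LIPUS cells, a ratio of 0.599. Besides H19 near Igf2, no neighbour of Igf1, Igf2, Igf1r or Igfbp3 reached a mean FPKM of 1.

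Over the pooled values of the 2 groups, the genes closest to Igfbp4 in level were Rpl26, Rpl21 and Eef1b2, genes of the ribosome and of translation elongation, at distances of 0.02 to 0.05 on the log2 scale. Those closest to Igfbp5 were Tuba4a (113 FPKM in Control and 172 in LIPUS cells), CAAA01147332.1 (111 and 176) and F13a1 (118 and 178), at distances of 0.02 to 0.07. With only 2 values per gene such likeness describes level and ratio alone.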
